A study of Mus musculus with 9 samples.

Results

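The 10 genes described here encode titin and proteins of the Z-disc and the costamere of heart muscle: Ttn, Ldb3, Actn2, Tcap, Csrp3, Myoz2, Nexn, Cmya5, Xirp1 and Xirp2. They were chosen by name, with earlier results of these data known, and all 10 of 10 were found among the 55487 genes of the count table and passed the low-count filter, as 10 of the 15633 genes tested. Cardiomyocytes isolated from mice gave 9 RNA-seq libraries, 3 in each of 3 groups. The first group received an AAV9 vector for overexpression of the long noncoding RNA Firre (AAV9-Firre), the negative control received the AAV9 control vector (AAV9-VC), and the third group is labelled as a blank control (NC). The first 2 groups share the viral vector, and all 3 share the cell isolation. Strain, age, sex, vector dose, time after infection and the promoter driving Firre are not stated in the labels. The titles speak of biological replicates but name no animal or culture, and p-values therefore cover only the spread among these 9 samples, part of which could be technical.

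The Z-disc is the plate of alpha-actinin at each end of a sarcomere, the contractile unit of striated muscle, in which actin filaments of neighbouring sarcomeres are cross-linked. Titin is a giant elastic protein that runs from the Z-disc to the middle of the sarcomere and acts as its spring. Costameres are the protein complexes that tie the outermost Z-discs to the cell membrane and the matrix, and several proteins of both structures are also signalling scaffolds for stretch. Defects in many of these genes cause cardiomyopathy in people or mice.

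Counts assigned to genes totalled 15591542 to 22697016 per library, and Firre itself measured 62.6 to 69.7 CPM (counts scaled to TMM-adjusted library totals) in the Firre libraries against 30.2 to 37.2 CPM in the 6 controls. The libraries held RNA of heart muscle cells and of other cells. The 12 cardiomyocyte markers summed to 35681 to 38480 CPM in the negative control libraries and 56687 to 59709 CPM in the Firre group. All 9 fibroblast, 9 endothelial, 8 smooth muscle and pericyte and 8 macrophage markers were called lower with Firre, beside 28.4% of all genes tested. Over the same groups the 9 fibroblast markers summed to 9719 to 9917 and 4459 to 5001 CPM, the 9 endothelial markers to 1301 to 1317 and 535 to 574 CPM, and the 8 smooth muscle and pericyte markers to 2815 to 3214 and 1407 to 1553 CPM. The 8 macrophage markers summed to 66.6 to 72.1 and 11.5 to 12.6 CPM, with 2 to 3 of the 8 at 0 counts in each Firre library, among them C1qa in all 3. The 8 skeletal muscle markers stayed at 3.15 to 5.28 CPM in sum in all 9 libraries, and Myf5 and Pax7 were at 0 in each. In bulk RNA, fewer cells of a type and less RNA per cell cannot be told apart. The part of cell makeup in the results below was not tested.

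All 10 genes were higher in the Firre group than in the negative control, by 1.26-fold to 2.41-fold, and in each of them the 3 Firre libraries lay above all 6 control libraries, with TMM scaling over all genes; scaled instead to 12 cardiomyocyte markers, 4 were called higher and 3 lower, beside 671 higher and 11717 lower of all 15633 genes tested. The rises spanned a range from about 2-fold or more for Ldb3, Myoz2 and Csrp3 down to 1.26-fold to 1.28-fold for Xirp2, Cmya5 and Ttn. edgeR's quasi-likelihood test called 10 of 10 higher and none lower at an adjusted p under 0.05. Across all genes tested, 27.5% were called higher, 28.4% lower and 56% were called in either direction. At least 2-fold higher calls were made for 3 of the 10 and for 4.89% of all genes tested. There was no overlap between the groups for 10 of the 10, against 62.4% of all genes tested and 30.8% with the Firre group higher. The median log2 fold change of the 10 was 0.71, and that of all genes tested was 0.00.

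**Figure D1:**
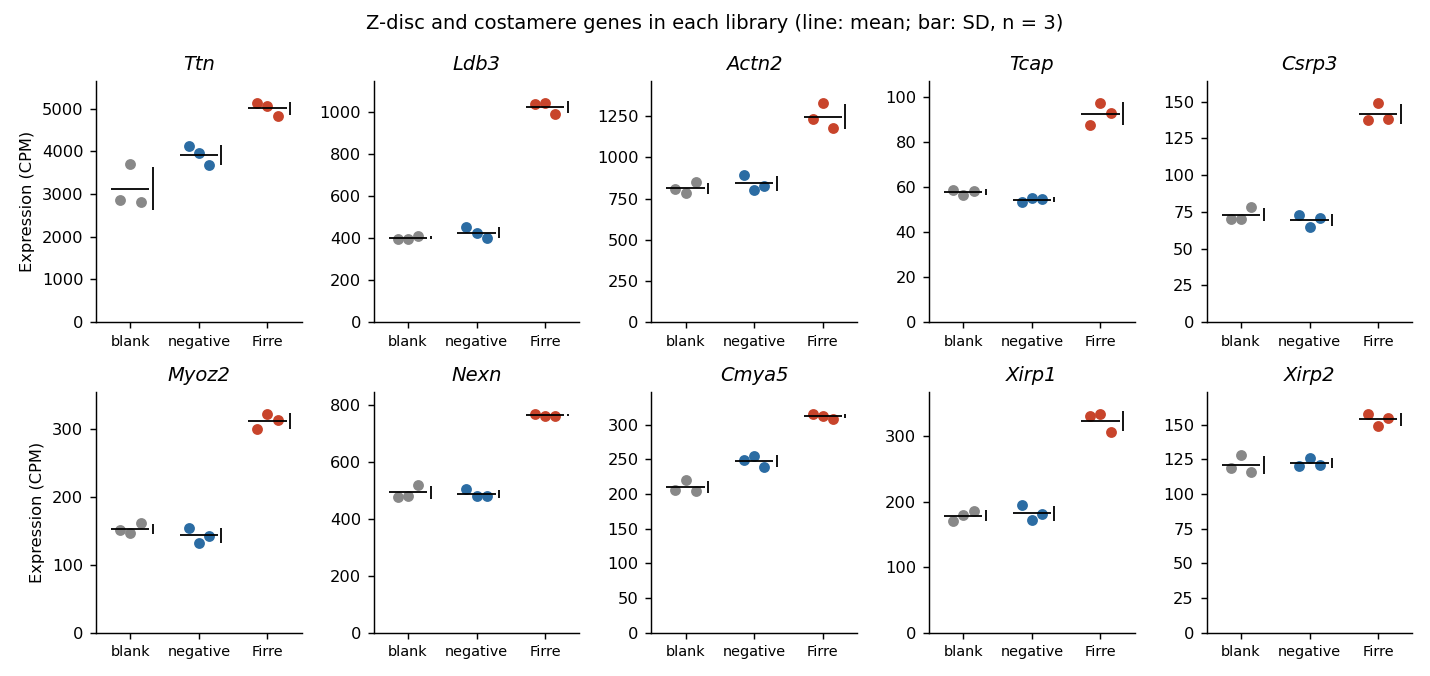
Expression of each gene (CPM, linear axis from 0) in the 3 blank control, 3 negative control and 3 Firre libraries; points are libraries, lines are group means and bars are 1 SD (n = 3). The Firre libraries lie above all 6 controls in each panel, and Ttn has 1 blank control library, at 3703 CPM, near the negative control.

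Against the negative control, titin's gene rose by less than that of its cap, telethonin. Ttn measured 4130, 3959 and 3674 CPM in the negative control libraries, 5138, 5066 and 4841 CPM in the Firre libraries and 2863, 3703 and 2825 CPM in the blank control libraries. The Firre libraries were the 3 highest, and the blank control was uneven, with its second library well above the other two. Ttn rose by 0.36 on the log2 scale (SE 0.10, edgeR adjusted p = 0.0205) against the negative control. This call depended on the processing. It was lost with library totals alone as the scaling (0.30, adjusted p = 0.0547), with no low-count filter (0.35, adjusted p = 0.0514), and without negative control replicate 2, Firre replicate 1 or Firre replicate 2 (adjusted p = 0.0702, 0.0791 and 0.0736), within a range of 7.99e-09 to 0.0791 over all alternatives. When the fit held the 2 compared groups alone, and so left out the uneven blank control, the value was 0.36 with an SE of 0.04 (adjusted p = 7.99e-09). A single count per gene does not separate the elastic isoforms of titin.

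Tcap encodes telethonin, a small protein that binds the ends of a pair of titin molecules together in the Z-disc. Its levels were 53.3, 55.1 and 54.8 CPM in the negative control libraries, 87.3, 97.3 and 93.0 CPM with Firre and 58.6, 56.3 and 58.1 CPM in the blank control libraries. The 6 controls lay within a few CPM of each other. Against the negative control, Tcap rose by 0.77 (SE 0.06, edgeR adjusted p = 9.63e-13). This was a larger value than that of Ttn, whose 95% interval (0.11 to 0.60) did not reach that of Tcap (0.65 to 0.88). Against the blank control the 2 genes were alike, with Tcap at 0.68 (95% interval 0.57 to 0.80) and Ttn at 0.68 (0.44 to 0.92).

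Among proteins of the Z-disc lattice, Ldb3, Myoz2 and Csrp3 rose most. Ldb3 encodes Cypher (also called ZASP), a PDZ-LIM protein that binds alpha-actinin and holds the Z-disc together under load. It measured 451, 427 and 399 CPM in the negative control libraries and 1038, 1044 and 993 CPM with Firre, beside 398, 397 and 409 CPM in the blank control libraries. Each Firre library had more than 2 times the level of any control, and the rise was 1.27 (SE 0.05, edgeR adjusted p = 5.12e-20). Ldb3 stood at the 97.2 percentile of fold changes over all genes tested.

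Myoz2 encodes calsarcin-1, which links alpha-actinin to the phosphatase calcineurin and restrains calcineurin signalling. Its levels were 155, 132 and 143 CPM in the negative control libraries, 300, 323 and 313 CPM with Firre and 151, 147 and 161 CPM in the blank control libraries. Csrp3 encodes muscle LIM protein, found at the Z-disc and in the nucleus, and measured 72.7, 65.0 and 71.0 CPM in the negative control libraries, 138, 149 and 138 CPM with Firre and 70.5, 70.4 and 78.4 CPM in the blank control libraries. The Firre libraries of both genes lay far above the controls, and their groups were well apart. The rises were 1.12 for Myoz2 (SE 0.05, edgeR adjusted p = 4.38e-17) and 1.03 for Csrp3 (SE 0.06, edgeR adjusted p = 1.52e-15).

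Actn2, the gene of the alpha-actinin that builds the Z-disc itself, and Nexn, the gene of the actin-binding protein nexilin, rose by less. Actn2 measured 894, 803 and 829 CPM in the negative control libraries, 1232, 1330 and 1178 CPM with Firre and 806, 782 and 850 CPM in the blank control libraries. Nexn measured 505, 480 and 483 CPM in the negative control libraries, 771, 764 and 763 CPM with Firre and 477, 483 and 521 CPM in the blank control libraries. A gene on the same strand, Gm43185, shares 7.5% of the exon bases of Nexn, and reads there could be split. The 3 Firre values of Nexn were the closest set among the 10 genes (coefficient of variation 0.579%). The rises were 0.57 for Actn2 (SE 0.05, edgeR adjusted p = 4.25e-11) and 0.65 for Nexn (SE 0.04, edgeR adjusted p = 1.58e-13).

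The 3 genes of the costamere and of actin-bound membrane sites split. Xirp1 encodes Xin, an actin-binding repeat protein of the intercalated disc, the junction between heart muscle cells. It measured 195, 172 and 181 CPM in the negative control libraries, 330, 334 and 305 CPM with Firre and 170, 180 and 186 CPM in the blank control libraries, and rose by 0.82 (SE 0.05, edgeR adjusted p = 2.18e-14). Its relative Xirp2 measured 120, 126 and 121 CPM in the negative control libraries, 158, 149 and 155 CPM with Firre and 119, 129 and 116 CPM in the blank control libraries, and rose by 0.33 (SE 0.05, edgeR adjusted p = 2.31e-06). Their 95% intervals were 0.72 to 0.93 for Xirp1 and 0.22 to 0.43 for Xirp2 and did not meet.

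Cmya5 encodes myospryn, a large costamere protein that binds alpha-actinin and desmin. Its levels were 249, 255 and 239 CPM in the negative control libraries, 316, 313 and 309 CPM with Firre and 205, 220 and 205 CPM in the blank control libraries, so that the 3 groups formed 3 separate steps. Between the Firre group and the negative control the difference was 0.33 (SE 0.05, edgeR adjusted p = 3.14e-07).

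**Figure D2:**
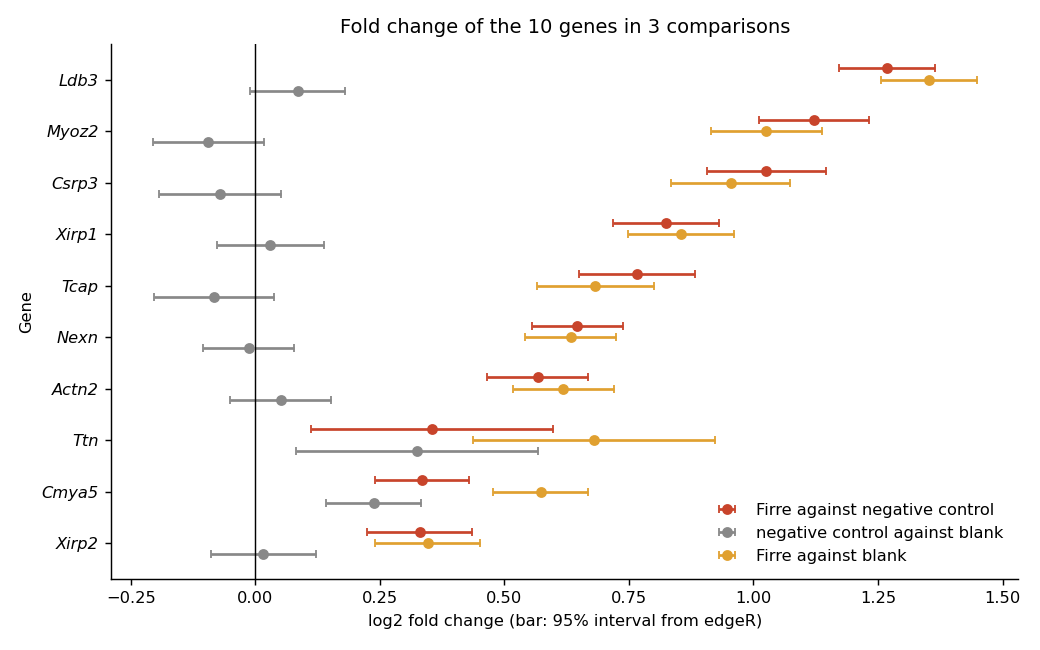
Log2 fold change of each gene (points) with its 95% interval from edgeR (bars) in 3 comparisons; the comparisons share libraries and are not independent. Against the negative control the values run from 0.33 for Xirp2 to 1.27 for Ldb3, and Ttn has the widest intervals.

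The control vector was set against the blank control to see what the vector alone was accompanied by. Cmya5 was higher in the negative control by 0.24 (SE 0.05, edgeR adjusted p = 0.0423), with no overlap between the groups. It was the 1 gene called higher among 15633 (0.0064%), and 8 others, or 0.0512%, were called lower, so that 0.0576% were called in all. At an unadjusted p under 0.05, 1331 genes (8.51%) passed. The 2 groups did not overlap for Cmya5 and Tcap, against 13.1% of all genes tested and 6.21% with the negative control higher, and Tcap lay lower there (-0.08). No other member was called, although Ttn passed the unadjusted threshold (edgeR unadjusted p = 0.0154). Cmya5 lost the call in 9 of the alternatives, with the adjusted p ranging from 2.63e-04 with DESeq2 to 0.298 with scaling to cardiomyocyte markers. Among them, the adjusted p was 0.183, 0.0893, 0.219 and 0.172 without blank control replicate 1, blank control replicate 3, negative control replicate 1 and negative control replicate 2.

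Ttn had the largest value of the 10 in that comparison, at 0.32 (SE 0.10, 95% interval 0.08 to 0.57), and was not called (edgeR adjusted p = 0.460). Without blank control replicate 2, the library with 3703 CPM, the value was 0.46 (SE 0.05) and passed (edgeR adjusted p = 3.08e-06). The values of the other 8 genes lay between -0.09 for Myoz2 and 0.08 for Ldb3, and each of their 95% intervals held 0. Against the blank control, the Firre group had all 10 genes higher (27.3% of all genes tested were called higher, 28.9% lower and 56.3% in all), with values from 0.35 for Xirp2 to 1.35 for Ldb3. No member overlapped between these groups, against 60.5% of all genes tested without overlap and 29.5% with Firre higher, and Ldb3 and Myoz2 were called at least 2-fold higher, against 4.93%. In that comparison, which shares the Firre libraries with the first, Ttn was at 0.68 (SE 0.10) and Cmya5 at 0.57 (SE 0.05), against 0.36 and 0.33 beside the negative control.

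The order of levels was read per length, as CPM per kilobase of annotated exon. Actn2 was highest in the negative control (222 ± 12.3 CPM per kb), followed by Nexn (128 ± 3.61), Ldb3 (69.7 ± 4.22), Tcap (57.4 ± 1.04) and Myoz2 (41.9 ± 3.28; SD, n = 3). Below them came Ttn (33.6 ± 1.97), Xirp1 (31.2 ± 1.96), Csrp3 (26.1 ± 1.52), Cmya5 (20.9 ± 0.688) and Xirp2 (10.2 ± 0.280). Neighbours in this order did not overlap over their 3 libraries, except Ttn and Xirp1. With Firre the levels ran from 329 ± 20.3 for Actn2 to 12.8 ± 0.387 for Xirp2. Ttn, at 42.9 ± 1.33, then stood in place 8, below Xirp1 (55.3 ± 2.65) and Csrp3 (53.0 ± 2.44), and the overlapping neighbours were Tcap with Myoz2 and Xirp1 with Csrp3. It was in place 8 in the blank control as well (26.8 ± 4.25), where Xirp1 (30.6 ± 1.36), Csrp3 (27.4 ± 1.72) and Ttn overlapped as neighbours. The Ttn messenger is so long that it took 0.371% to 0.417% of all gene counts in the negative control libraries and 0.472% to 0.501% in the Firre libraries. Its share of the counts of the 10 genes was 59.3% to 61.1% and 52.9% to 54.0% in those groups, and 52.2% to 60.0% in the blank control.

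Against the negative control, the smallest rises belonged to the 3 genes with the longest transcripts. The annotated exons of Ttn on chromosome 2 (76703980 to 76982547, minus strand, mm10) add up to 116825 bases in 345 separate blocks. Those of Xirp2, also on chromosome 2 (67446002 to 67526614, plus strand), add up to 11979 bases, and those of Cmya5 on chromosome 13 (93040713 to 93144724, minus strand) to 11850 bases. The antisense gene A630019I02Rik on the opposite strand covers 20.7% of the Cmya5 exon bases and held 49 counts in all 9 libraries. The other 7 genes have 948 (Tcap) to 6105 (Ldb3) exon bases and rose by 0.57 to 1.27. Among the Z-disc genes, mm10 places Ldb3 on chromosome 14 (34526603 to 34588682, minus strand), Myoz2 on chromosome 3 (123006206 to 123035015, minus strand), Csrp3 on chromosome 7 (48830398 to 48848033, minus strand). It places Actn2 on chromosome 13 (12269426 to 12340760, minus strand), Nexn on chromosome 3 (152236982 to 152266350, minus strand), Tcap on chromosome 11 (98383811 to 98384953, plus strand) and Xirp1 on chromosome 9 (120013755 to 120023598, minus strand). Over all genes tested, the median in this comparison was 0.07 at up to 2000 exon bases, -0.05 at 8000 to 12000 bases, the range that holds Cmya5 and Xirp2 and has the lowest median, and 0.06 for the 110 genes above 20000 bases. Against the blank control, Ttn (0.68) instead lay above Nexn (0.63), Actn2 (0.62) and Cmya5 (0.57), and Xirp2 was lowest (0.35). The part of length in the small rises was not tested.

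Ttn was lowest in the 2 blank control libraries in which long genes as a class were also lowest. The median deviation of those 110 genes from their mean over all 9 libraries was -0.08, 0.03 and -0.16 in blank control libraries 1 to 3, -0.02 to 0.02 in the negative control and 0.03 to 0.07 with Firre (log2 scale). Ttn deviated by -0.46, -0.09 and -0.48 in the blank control, -0.10 to 0.07 in the negative control and 0.30 to 0.38 with Firre. In the negative control against the blank control, the median of all genes rose with exon length, from -0.06 at up to 2000 bases to 0.08 above 20000 bases. With the length trend of each library removed, an alternative chosen after these values were seen, Ttn was at 0.25 (SE 0.05, edgeR adjusted p = 3.54e-05) for Firre against the negative control. Cmya5 was then at 0.37, Xirp2 at 0.37 and Ldb3 at 1.30, and all 10 genes were still called higher. For the negative control against the blank control, the same alternative gave 0.20 (adjusted p = 0.113) for Cmya5 and 0.19 (adjusted p = 0.177) for Ttn. What sets this trend was not tested.

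**Figure D3:**
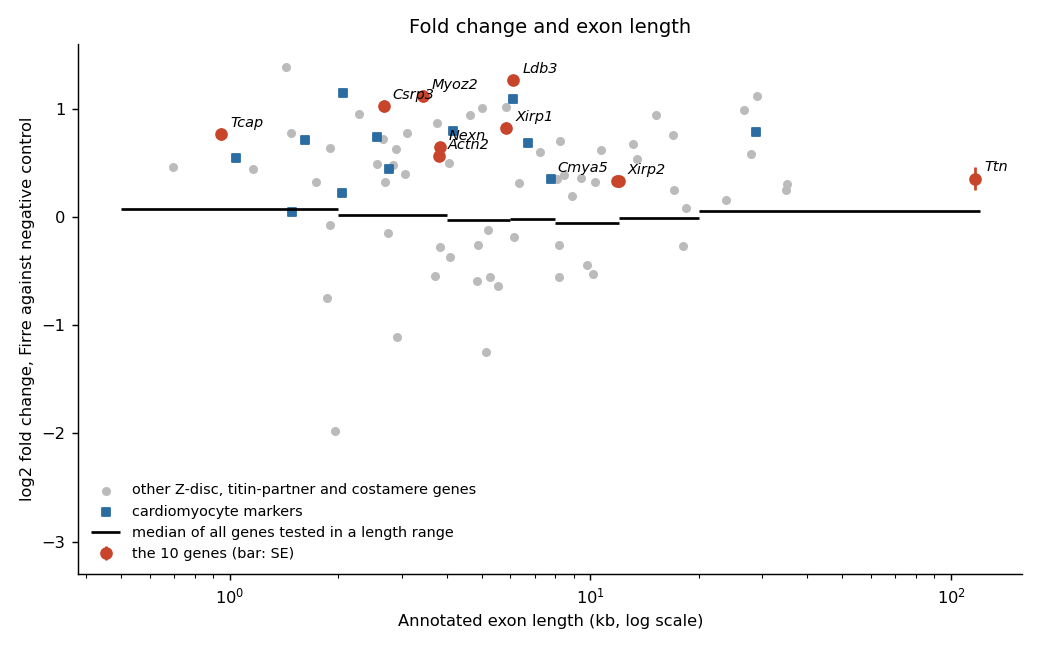
Log2 fold change of Firre against the negative control and annotated exon length (log axis) for the 10 genes (bars: SE), other genes of the Z-disc, of titin's partners and of the costamere, and 12 cardiomyocyte markers; black lines are medians of all genes tested in a range of lengths. Ttn, Cmya5 and Xirp2 lie at 0.33 to 0.36, and the medians of the length ranges lie between -0.05 and 0.07.

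The rises were then set beside those of heart muscle genes in general. The 12 cardiomyocyte markers, none of them among the 10, ranged from 0.05 for the myoglobin gene Mb to 1.15 for the cardiac troponin I gene Tnni3, with a median of 0.69. Ldb3 lay above all 12 and the other 9 genes lay within their range, 5 of the 10 being above the median. For each library the mean log2 level of the 12 markers was subtracted from that of each gene. On this relative scale Ldb3 was at -1.71, -1.74 and -1.86 in the negative control and -1.13, -1.11 and -1.15 with Firre, a difference of 0.64. Myoz2 differed by 0.49, Csrp3 by 0.39 and Xirp1 by 0.19, and in these 4 genes the Firre libraries lay above all 6 controls.

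Ttn, Cmya5 and Xirp2 went the other way relative to the markers. Ttn was at 1.49, 1.48 and 1.34 in the negative control and 1.18, 1.17 and 1.13 with Firre, a difference of -0.27, and the blank control libraries, at 0.97, 1.37 and 0.92, lay on both sides of the Firre values. Cmya5 differed by -0.30, with the blank control again on both sides of Firre (-2.83, -2.70 and -2.86 against -2.84, -2.85 and -2.83). Xirp2 differed by -0.30, and its Firre libraries lay below all 6 controls. Actn2 (-0.06), Nexn (0.02) and Tcap (0.13) overlapped between the groups. With 3 libraries against 3 the exact two-sided permutation test cannot go below p = 0.1, which the 7 genes without overlap reached (adjusted p = 0.143 over the 10 genes).

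In the whole-table test, libraries were also scaled to the 12 markers in place of all genes. Such scaling shifts all genes by nearly the same amount. The unchanged order of the 10 genes therefore follows from it and is not a second test. That scaling moved the median of all genes tested to -0.66. On it Ldb3 (0.61), Myoz2 (0.46), Csrp3 (0.36) and Xirp1 (0.16) were called higher and Ttn (-0.31), Cmya5 (-0.33) and Xirp2 (-0.33) were called lower by edgeR, at adjusted p of 0.0333 or less. Tcap (0.10), Actn2 (-0.10) and Nexn (-0.01) were not called. All 10 genes were called higher in the main fit with TMM scaling over all genes, and not with scaling to these markers. Some other fits with TMM scaling lost the call of Ttn, as given above.

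**Figure D4:**
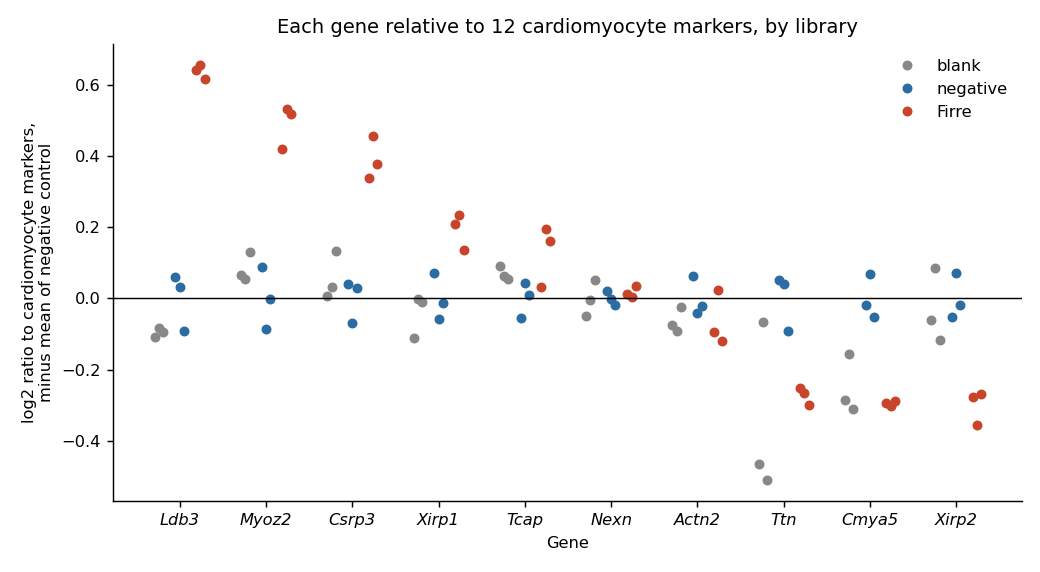
Log2 ratio of each gene to the mean of 12 cardiomyocyte markers in each library (points), minus the mean of the negative control. Ldb3, Myoz2, Csrp3 and Xirp1 lie above 0 in all 3 Firre libraries, and those of Xirp2 lie below all 6 controls. The blank control libraries of Ttn and Cmya5 lie on both sides of the Firre group.

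Actn2, Csrp3, Myoz2 and Ldb3 belong to families with relatives expressed outside heart muscle, and the relatives mostly moved in the other direction. Actn1 and Actn4 encode the non-muscle alpha-actinins of stress fibres and adhesions. Actn1 fell from 1018 ± 68.8 to 657 ± 28.7 CPM, a log2 fold change of -0.63 with an SE of 0.05, and Actn4 fell from 799 ± 41.5 to 704 ± 29.1 CPM, a log2 fold change of -0.18 with an SE of 0.05 (SD, n = 3). Actn3, the alpha-actinin of fast skeletal fibres, was at 0.33 to 0.71 CPM in the group means and did not pass (-1.10, SE 0.52, edgeR adjusted p = 0.0736). Per length, Actn2 made up 41.8%, 41.9% and 40.3% of the 4 alpha-actinins in the negative control, 40.8%, 40.2% and 41.2% in the blank control and 59.0%, 59.0% and 57.2% with Firre. Actn2 was thus the leading form in each group, with the Firre libraries apart from all 6 controls.

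In the family of Csrp3, Csrp1, which is typical of smooth muscle and fibroblasts, fell from 335 ± 10.3 to 209 ± 11.2 CPM, a log2 fold change of -0.68 with an SE of 0.05, whereas Csrp2 rose by 0.67 (SE 0.06), from 140 ± 5.88 to 223 ± 16.7 CPM (SD, n = 3). Csrp2 was at 0.01 when scaled to the cardiomyocyte markers. Csrp3 made up 10.1%, 9.62% and 10.1% of the 3 genes per length in the negative control and 20.5%, 20.2% and 19.8% with Firre. It remained the least abundant of the 3, and its share with Firre was about 2 times that of the controls. The relatives of Myoz2 were nearly silent. Myoz1 stayed at 0.95 to 1.06 CPM in the group means (-0.07, 95% interval -0.76 to 0.62), Myoz3 was below the filter, and Myoz2 held 98.1% to 99.5% of the family in all 9 libraries.

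The PDZ-LIM relatives of Ldb3 also differed from it. Pdlim3, which encodes another alpha-actinin-binding protein, fell from 78.4 ± 2.39 to 33.1 ± 0.0209 CPM, a log2 fold change of -1.24 with an SE of 0.06 (SD, n = 3). Pdlim1 fell by 0.55 and Pdlim7 by 0.59, and Pdlim5, the Z-disc relative ENH, rose by 0.19 (SE 0.04, edgeR adjusted p = 4.86e-04). Scaled to the cardiomyocyte markers, Pdlim5 was at -0.47. Within the Xin pair, Xirp1 went from 73.6% to 76.9% of the 2 genes per length in the negative control to 80.2% to 82.2% with Firre. Of the 11 relatives listed, 10 were tested. Of these, 2 rose and 6 fell, with a median of -0.57, beside 27.5% higher and 28.4% lower over all genes tested. Fibroblast, endothelial and smooth muscle markers were lower in the same libraries, as given above, and their part in these falls was not tested.

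Of 14 other partners of titin listed, 12 were tested, 10 rose and 1 fell, with a median of 0.64, beside 27.5% higher and 28.4% lower over all genes tested. Trim54, a muscle RING-finger ligase that binds titin, went from 42.6 ± 4.09 to 111 ± 4.80 CPM (SD, n = 3), a log2 rise of 1.38 with an SE of 0.07. The one that fell was Fhl1, a LIM protein of titin's elastic region, by 0.55 (SE 0.05), from 190 ± 8.64 to 130 ± 2.16 CPM.

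Other Z-disc genes went both ways. Of 21 listed, 19 were tested. Of these, 12 rose and 5 fell, with a median of 0.36, beside 27.5% higher and 28.4% lower over all genes tested. Mypn, which encodes the titin- and nebulin-binding myopalladin, rose by 1.02 (SE 0.06), from 56.8 ± 4.34 to 115 ± 7.26 CPM, and the low nebulin gene Neb rose by 0.99 (SE 0.14), from 5.60 ± 1.08 to 11.2 ± 0.247 CPM (SD, n = 3). Pdlim3 and Actn1 had the largest falls, and all 5 genes that fell (Pdlim1, Pdlim3, Pdlim7, Actn1 and Actn4) are relatives already described, since the lists share them. Neb was not called when scaled to the cardiomyocyte markers (0.33, edgeR adjusted p = 0.0513).

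Costamere genes were divided most evenly. Of 29 tested, 16 rose and 12 fell, with a median of 0.25, beside 27.5% higher and 28.4% lower over all genes tested. Sspn, the gene of sarcospan in the dystrophin complex, went from 93.1 ± 0.615 to 187 ± 11.9 CPM (SD, n = 3), a log2 rise of 1.01 with an SE of 0.05. The largest falls were those of the keratins Krt8 and Krt19, at -1.98 (SE 0.15) and -0.75 (SE 0.14), from 11.7 ± 1.09 and 9.16 ± 1.21 CPM. With scaling to cardiomyocyte markers, which called 671 of all 15633 genes higher and 11717 lower, 1 costamere gene was called higher and 23 lower, as were 4 and 11 of the other Z-disc genes and 3 and 4 of titin's partners.

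**Figure D5:**
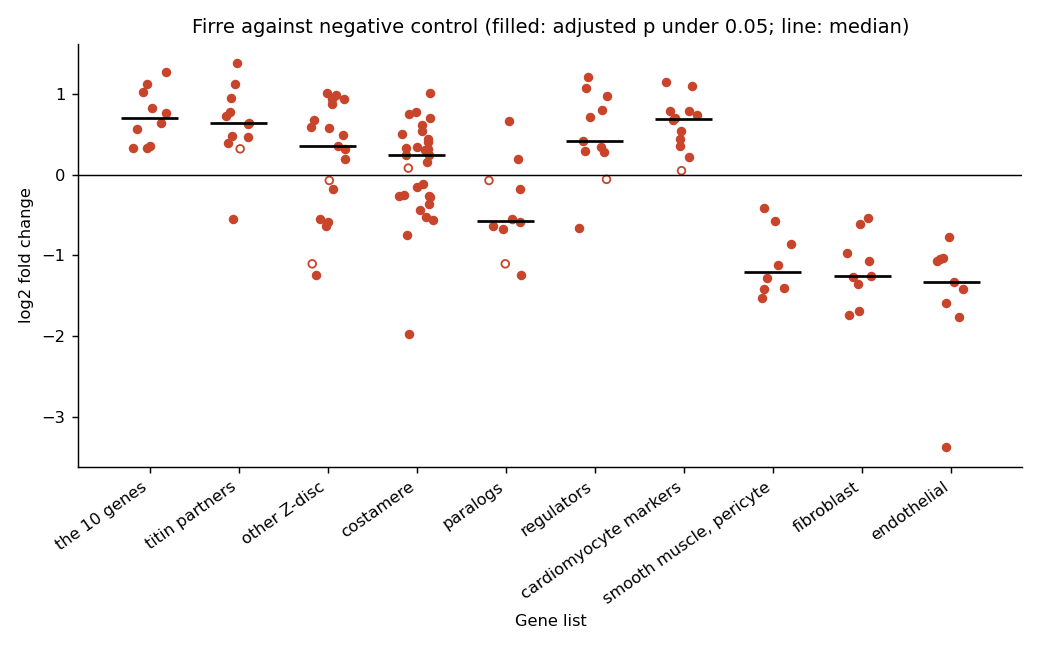
Log2 fold change of Firre against the negative control for the genes of each list (points; filled where the edgeR adjusted p was under 0.05) with the list's median (line); macrophage and skeletal muscle markers are not drawn. The 10 genes have a median of 0.71, the cardiomyocyte markers 0.69 and the relatives of the 10 genes -0.57.

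Regulators known to act on such genes were read from the same table. Of 11 tested, 9 rose and 1 fell, with a median of 0.41, beside 27.5% higher and 28.4% lower over all genes tested. Between the negative and the blank control, no gene of the partner, other Z-disc, costamere, relative and regulator lists was called. Tbx5, a T-box factor of the atria and left ventricle, rose by 1.21 (SE 0.05), from 74.9 ± 1.34 to 173 ± 2.55 CPM. Mef2c, a MADS-box activator of muscle genes, rose by 1.07 (SE 0.07), from 74.6 ± 3.68 to 157 ± 10.2 CPM (SD, n = 3). Mrtfa, a coactivator of serum response factor that senses actin, fell from 49.2 ± 3.47 to 31.1 ± 1.61 CPM, a log2 fold change of -0.66 with an SE of 0.07. Rbm20, the splicing factor best known for leaving out titin exons, was named after its value was seen. It measured 154 ± 4.22 CPM in the negative control libraries and 269 ± 14.4 CPM with Firre (0.80, SE 0.05, edgeR adjusted p = 2.31e-14). Scaled to the cardiomyocyte markers, 4 of the 11 were called higher and 6 lower, against 671 higher and 11717 lower of all 15633 genes.

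Since the 10 genes were higher together, their promoters were searched for letters that muscle factors bind. RefSeq windows on GRCm38.p6 (mm10), each from 250 bases before to 50 bases after a start site, were found for 7 of the 10 genes, and Tcap, Nexn and Xirp1 were not matched. These 7 genes had 9 windows, as Csrp3 and Ldb3 each had 2. A MEF2 motif lay in the windows of Ttn, Myoz2 and Xirp2, against 3.19% of all 32851 windows. A CArG box, the binding motif of serum response factor, lay in the 2 overlapping windows of Ldb3, against 1.63%. The match began 166 bases before the start of Ttn, 33 before that of Myoz2, 74 before that of Xirp2 and 35 before that of Ldb3. Cmya5, also among the genes least raised against the negative control, had neither motif in its window. The 250 bases before the start of these 4 genes are shown 5′ to 3′ on the strand of the gene, with the MEF2 motif or CArG box in capitals. They set Ttn and Xirp2, among the genes least raised against the negative control, beside 2 of the most raised.
Ttn (chr2:76982548-76982797, minus strand): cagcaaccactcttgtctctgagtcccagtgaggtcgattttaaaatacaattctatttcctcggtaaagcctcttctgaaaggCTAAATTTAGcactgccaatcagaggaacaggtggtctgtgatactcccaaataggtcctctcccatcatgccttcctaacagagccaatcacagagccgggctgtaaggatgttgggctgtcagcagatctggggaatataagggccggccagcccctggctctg
Xirp2 (chr2:67445752-67446001, plus strand): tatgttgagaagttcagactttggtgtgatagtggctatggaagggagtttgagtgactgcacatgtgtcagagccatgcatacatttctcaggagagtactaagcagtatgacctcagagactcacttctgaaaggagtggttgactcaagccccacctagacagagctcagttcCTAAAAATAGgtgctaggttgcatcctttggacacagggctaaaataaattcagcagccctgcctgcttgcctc
Myoz2 (chr3:123034988-123035237, minus strand): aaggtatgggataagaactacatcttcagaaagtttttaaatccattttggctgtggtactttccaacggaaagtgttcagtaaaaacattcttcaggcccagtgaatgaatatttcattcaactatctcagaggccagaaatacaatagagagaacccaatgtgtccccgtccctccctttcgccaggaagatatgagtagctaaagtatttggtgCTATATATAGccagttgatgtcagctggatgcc
Ldb3 (chr14:34588682-34588931, minus strand): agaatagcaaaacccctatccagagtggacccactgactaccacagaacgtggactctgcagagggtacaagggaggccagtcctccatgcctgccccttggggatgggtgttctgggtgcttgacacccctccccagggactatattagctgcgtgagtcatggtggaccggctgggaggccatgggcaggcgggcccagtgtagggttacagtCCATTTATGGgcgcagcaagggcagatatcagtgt

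The MEF2 matches thus occurred in 1 gene that rose by 1.12 and in 2 that rose by 0.36 and 0.33, and not in Cmya5, which rose by 0.33. Shorter motifs, searched on both strands, were found in 1 gene each: the M-CAT letters CATTCC in Ttn, where they lay after the start, the E-box CAGCTG in Myoz2, the T-box letters AGGTGT in 1 of the 2 windows of Csrp3 and the GATA letters AGATAA in Cmya5. Of all windows, 14.7%, 16.3%, 13.7% and 11.2% held these. None of the 7 genes had the exact letters TATAAA, which 13.6% of all windows held. Variants, such as TATAAG before Ttn or TATATA within the MEF2 match of Myoz2, were not searched. A match is a description of the letters and not a measured binding site.

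Genes elsewhere in the table with the pattern most like each member over the 9 libraries were found by the root mean square difference of centred log2 levels, among 9204 protein-coding genes of at least 10 CPM. Ttn, whose blank control was uneven, was closest to Tnrc6b (0.07), Lgr4 (0.09), Peg3 (0.09), Rbm15 (0.09) and Ralgapa1 (0.10), against a median of 0.32 over all candidates. None of these 5 is a sarcomere gene. Cmya5 was closest to Lgr4 as well (0.05). The nearest genes to Nexn, Ldb3 and Xirp1 encode mitochondrial proteins: the ATP synthase subunit gene Atp5f1 (0.02), the cyclophilin D gene Ppif (0.04) and the oxoglutarate dehydrogenase gene Ogdh (0.04). Nearest to Actn2 was the hexokinase gene Hk1 (0.03), to Tcap Pigq (0.04), to Csrp3 Cited4 (0.04), to Myoz2 Angptl4 (0.05) and to Xirp2 Kat2b (0.03). The 9 points share the same 3 groups.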

How the data were processed

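RNA-seq counts of 9 libraries were analysed, 3 per group, with groups from the sample titles and columns matched through the sample descriptions. The authors deposited 1 raw count for each Ensembl gene and library. Per the submitters' processing notes, FastQC, Trimmomatic, STAR, featureCounts and mm10 were used; versions and the strand setting, not given in the sources used here, stay unknown, and the table closes with summary lines. These lines, of reads assigned to no gene, 16.3% to 17.4% of all counts, were left out. Per the labels' protocols, ribosomal RNA was depleted and libraries were directional, while another label names polyA RNA. Symbols, exon lengths and coordinates came from GENCODE M21 (mm10), which held 55227 of 55487 identifiers.

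Differences were tested with edgeR 4.0.16 in R 4.3.3 (quasi-likelihood F test), fitted to all 9 libraries with TMM scaling, filterByExpr (minimum count 10, minimum total 15), 15633 genes and Benjamini-Hochberg adjustment at 0.05. CPM use TMM-scaled totals, and log2 ratios a pseudocount of 0.5. Each SE is the size of the log2 fold change divided by the root of its F value. Replicates of a group differed by more than counting noise (chi-square per degree of freedom 3.27 to 7.39). On counts simulated for Firre against the negative control over 14985 genes, the test recovered 73.8% of 80 genes with a simulated log2 change of 0.5. The members and lists were chosen with earlier results of these data known. Named were all 10 members and their relatives, the 2 largest rises and falls past the threshold in each list, and the nearest genes by pattern, except that 2 genes the rule names are not reported here; others are said to be chosen after their values were seen. Alternatives were other scalings, filters and samples in the fit, DESeq2 1.42.0, a replicate block, leaving out each library and removing a length trend, the last chosen after seeing the data.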

Additional observations from a re-analysis of the deposited data

How the results depend on the processing

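Against the negative control, the 10 genes kept their direction under all alternatives except scaling to cardiomyocyte markers, and 10 were called higher except 9 with library totals, with no low-count filter and without 3 of the single libraries, where Ttn was lost, and 4 with marker scaling. With marker scaling 3 were called lower; Ttn was at -0.31, Actn2 at -0.10, Nexn at -0.0148, Cmya5 at -0.33 and Xirp2 at -0.33, and of all genes 671 were called higher and 11717 lower, against 4306 and 4441. Against the blank control that scaling gave 4 higher and 1 lower, with Actn2 at -0.0304, Nexn at -0.0129, Cmya5 at -0.0760 and Xirp2 at -0.30. By construction this scaling brings the markers' median near 0 (0.03 against the negative control). TMM does so for the median of all genes tested (0.00). Which scaling fits these samples better was not tested. Leaving out single libraries gave 9 to 10 members and 7938 to 8128 genes called against the negative control.

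For the negative control against the blank control, 9 genes and 1 member were called. The genes called numbered 0 with marker scaling, 98 with no low-count filter, 4 with a mean of at least 10 CPM, 28 with DESeq2, 4 with the length trend removed and 0 to 55 without single libraries, with 55 without blank control replicate 2, 0 without blank control replicate 1, 3, 4 and 15 without negative control replicates 1, 2 and 3. Members called numbered 0 with marker scaling, a mean of at least 10 CPM, the 2 groups alone and the length trend removed, and 0 to 2 without single libraries. Nexn changed sign with marker scaling (0.00194) and Xirp2 with the length trend removed (-0.0213); without single libraries Nexn ranged from -0.0366 to 0.0275, Xirp2 from -0.0138 to 0.0627 and Xirp1 from -0.0192 to 0.0710. The cause was not tested. Titles number the replicates alike in each group, but same-numbered libraries did not deviate together (correlations -0.0609 to 0.0424). The main fit did not pair them. These correlations cannot show whether such libraries share an animal or preparation, which the titles do not state. With a replicate block, 8592 genes and 10 members were called for Firre against the negative control, and 0 members for the negative against the blank control, where Cmya5 had an adjusted p of 0.0890.

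Relative to the 6 contractile markers alone, the difference for Ttn was -0.35, Ldb3 0.56, Actn2 -0.14, Tcap 0.0540, Csrp3 0.32, Nexn -0.0588, Cmya5 -0.37, Xirp1 0.12 and Xirp2 -0.38. Relative to the 6 other markers it was -0.20, 0.71, 0.0120, 0.20, 0.47, 0.0921, -0.22, 0.27 and -0.23 in the same order, so the sign for Actn2 and Nexn depended on the markers. Myoz2 moved by less than its spread. Depth limits the rare relatives: Myoz3 fell below the filter and was not tested.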

Other observations

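Annotated exons of 4 of the 10 genes overlap another gene. The overlap with Nexn is on the same strand, with Gm43185, over 287 bases or 7.5% of its exon length, and that gene held 1621 counts over all 9 libraries. The antisense gene A630019I02Rik covers 20.7% of the exon length of Cmya5 and held 49 counts, and the antisense partners of Ttn (Gm13938) and Xirp2 (Gm13601) held 11 and 5. Without a stated strand setting, reads of a gene and its antisense partner cannot be told apart.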
